A study of Mus musculus with 18 samples.

Results

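The comparison described here was the colon of wild-type (WT) mice after azoxymethane and dextran sulfate sodium (AOM/DSS) against the colon of untreated WT mice, by RNA-Seq. It took 6 of the 18 libraries of the series: the 3 whose labels gave the genotype WT and the treatment AOM-DSS, and the 3 whose labels gave WT and Control. The mice were on a C57BL/6 background with littermates as WT controls of the knockout. Per the labels the AOM/DSS mice received 1 dose of 10 mg/kg AOM, a colon carcinogen, and 3 cycles of 2.5% DSS, a polymer given in the drinking water that injures the colonic epithelium. The source labels called the treated tissue colitis-associated colon cancer, but nothing stated whether a library came from a tumor, from the tissue between tumors or from both. The labels gave neither age nor litter nor cage. Each library had its own title and no statement of a separate animal, so that p-values measure a spread between libraries. That spread was estimated from all 18 libraries, the knockout and DSS recovery groups included, and not from these 6 alone. The untreated and treated mice carried different kinds of title, and a difference between batches of mice cannot be told apart from the treatment. Libraries from Cldn2-knockout (Cldn2KO) mice under the same 2 conditions also gave side-by-side values and a test of the difference between the genotypes' responses.

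Background to the genes described below is as follows. Repeated injury and a mutagen drive colon tumors in this model largely through mutations that stabilize β-catenin, which switches on Wnt feedback genes in proliferating crypt cells. The surface of the colon is lined by mature absorptive cells with a brush border, and these cells are renewed from the crypt. MHC class II molecules display peptides taken up from outside the cell to CD4+ T cells, are made by professional antigen-presenting cells and, when induced by interferon-gamma, by intestinal epithelium, and depend on the coactivator Ciita.

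The 6 libraries held 17.6 to 25.4 M reads assigned to genes, and 21596 to 23245 genes had at least 1 read. All carried colonic epithelium, with Epcam between 1821 and 2417 CPM (counts per M reads, after scaling of the library total) and Cdx1 between 110 and 261 CPM. The library WT control replicate 2 stood apart: Hoxb13, a marker of the distal colon, was at 0.327 CPM there against 465 and 456 CPM in the other untreated libraries and 198 to 285 CPM after AOM/DSS. Car1 stood at 45440 CPM in that library and at 573 and 605 CPM in the other controls, so that its markers of colon region differed from those of the other 5. All 6 libraries of mice that recovered from DSS shared this pattern, with Hoxb13 at 0 to 0.502 CPM and Car1 at 8171 to 43582 CPM. They enter here only for the estimate of the spread and for a few values. By these markers control replicate 2 was closer to the recovery libraries than to the other controls. Its label was kept, and whether it was taken from another part of the colon or from another group was not tested, so that every mean over the controls carries this doubt. WT AOM/DSS replicate 3 was the other library apart, at the opposite end of the first principal component of the 6 libraries (51.9% of the variance, -119 for control replicate 2 and 92 for AOM/DSS replicate 3). The lists and main genes are therefore given with all 6 libraries and, where a call changed, without one or the other of this pair.

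Of 16937 genes tested, 646 rose and 1115 fell after AOM/DSS at an adjusted p under 0.05 (edgeR quasi-likelihood test, Benjamini-Hochberg adjustment). These were 3.81% and 6.58% of the genes tested, and 5069 genes had an unadjusted p under 0.05. Without WT control replicate 2, 65 genes rose and 280 fell (0.375% and 1.61%). Without WT AOM/DSS replicate 3, 43 rose and 127 fell (0.248% and 0.733%). Of the 1761 genes called with all libraries, 297 were also called in the same direction without control replicate 2, 54 of them higher and 243 lower. In 127 genes, 29 higher and 98 lower, the call also held without AOM/DSS replicate 3. Fitted on the 6 WT libraries alone, with no other group to help estimate the spread, 7 genes passed, all lower: Cd74, H2-Ab1, H2-Eb1, H2-DMa, Ciita, Lars2 and Gm15564. Independently of any threshold, the 3 treated libraries all lay above the 3 controls in 14.9% of the genes and all below in 17.3%. The median log2 fold change of all genes was 0.01.

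**Figure D1:**
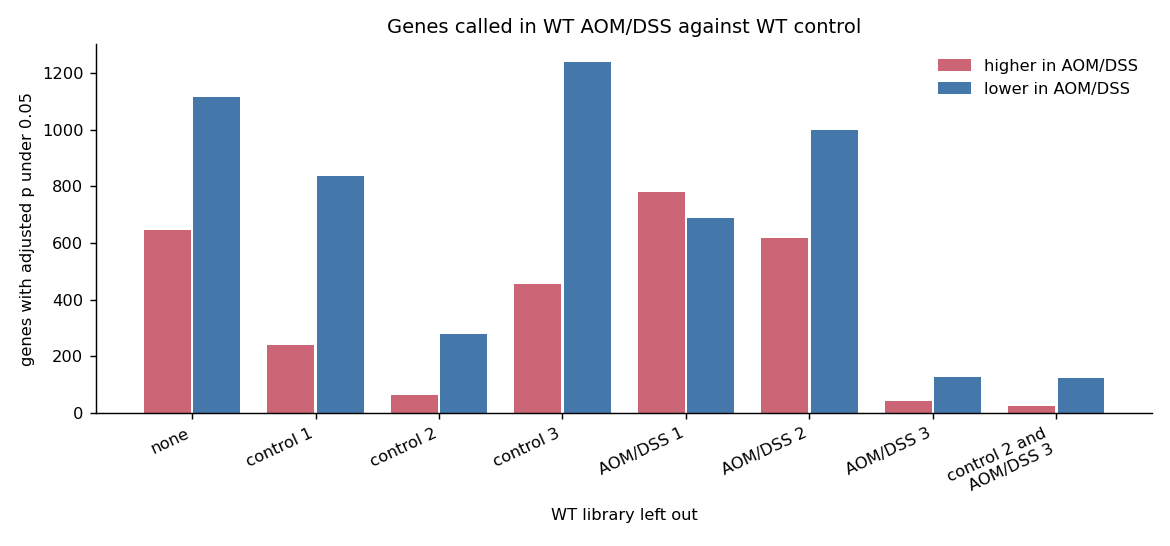
The bars give the number of genes (vertical axis, from 0) that passed an adjusted p under 0.05 in WT AOM/DSS against WT control when each WT library named on the horizontal axis was left out. With none left out 646 genes were higher and 1115 lower. Leaving out control 2 or AOM/DSS 3 removed most calls, and leaving out both left 24 higher and 124 lower.

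Genes of MHC class II presentation fell in all 3 treated libraries to about the same level. Of 15 tested members of the list, 7 fell and none rose, and the list median log2 fold change was -0.66 against 0.01 for all genes. Cd74, the invariant chain that escorts class II molecules through the cell, was at 1376, 1140 and 1410 CPM in the controls and at 107, 67.6 and 124 CPM after AOM/DSS. The groups lay far apart, and control replicate 2 was no exception among the controls. The log2 fold change was -3.72 ± 0.71 (SE, 3 against 3 libraries, edgeR adjusted p = 0.0111). H2-Ab1, the β chain of the class II molecule I-A (chr17:34257689-34269419, GRCm38), stood at 537, 543 and 639 CPM in the controls and at 50.1, 35 and 50.6 CPM after AOM/DSS. Its log2 fold change was -3.66 ± 0.60 (edgeR adjusted p = 0.00605), and it was called in 15 of 15 alternative settings. H2-Eb1, the β chain of I-E, was almost identical among replicates, at 301, 308 and 308 CPM against 35.1, 34.3 and 35.5 CPM (log2 fold change -3.13 ± 0.53, edgeR adjusted p = 0.00711). H2-Aa, the I-A α chain, fell from 1290, 1435 and 1629 to 213, 101 and 129 CPM (edgeR adjusted p = 0.0124). H2-DMa and H2-DMb1, the subunits of the chaperone that loads peptides onto class II molecules, fell by 3.19 and 3.40 on the log2 scale.

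Ciita, the coactivator on which class II transcription depends, was at 30.5, 32.2 and 29.2 CPM in the controls and at 5.08, 7.35 and 5.34 CPM after AOM/DSS. Its log2 fold change was -2.37 ± 0.57 (edgeR adjusted p = 0.024), with an adjusted p of 0.0593 without control replicate 2 and 0.0938 without AOM/DSS replicate 3. The subunits of the RFX complex, which binds class II promoters together with Ciita, were not called: Rfx5 had a log2 fold change of 0.23 ± 0.31, Rfxap of -0.13 ± 0.22 and Rfxank of -0.37 ± 0.23. These 3 were looked up after the values of the list were seen. Of the 7 members called with all libraries, 6 were also called without control replicate 2 and 4 without AOM/DSS replicate 3. H2-Ab1, H2-DMa and H2-DMb1 were called without both libraries. The class II genes share long stretches of sequence with their relatives, and H2-Eb1, H2-DMa and Ciita overlap a gene on the other strand, so that how reads were split is uncertain.

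The promoters of class II genes carry a conserved module whose Y box reads CCAAT on one strand and ATTGG on the other. They are shown here because these genes moved together. The 150 bases before the RefSeq start (GRCm38.p6, the strand of the gene, 5′ to 3′) are given for 3 of the called members, with the letters GATTGG, or their reverse complement, in capitals. H2-Aa lies on the minus strand at chr17:34287824-34287973, H2-Eb1 on the plus strand at chr17:34305717-34305866 and H2-DMb1 on the plus strand at chr17:34153041-34153190.
H2-Aa: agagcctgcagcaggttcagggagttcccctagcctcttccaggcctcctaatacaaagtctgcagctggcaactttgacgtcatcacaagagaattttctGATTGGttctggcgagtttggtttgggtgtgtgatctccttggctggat
H2-Eb1: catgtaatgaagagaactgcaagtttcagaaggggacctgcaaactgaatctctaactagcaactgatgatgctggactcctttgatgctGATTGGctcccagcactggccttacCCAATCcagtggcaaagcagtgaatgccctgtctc
H2-DMb1: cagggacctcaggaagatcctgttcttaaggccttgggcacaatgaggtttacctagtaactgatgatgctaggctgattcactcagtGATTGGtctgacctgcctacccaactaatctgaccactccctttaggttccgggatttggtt
The first match began 49 bases before the start in H2-Aa, 60 bases in H2-Eb1 and 62 bases in H2-DMb1. On either strand of the 300-base windows, GATTGG occurred in 8 of the 12 class II list genes with a window and in 18.2% of all 27025 genes with one. It occurred in 10 of 18 class I list genes (55.6%) and in 6 of 20 Wnt target genes (30%). The match is a description of these letters only.

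**Figure D2:**
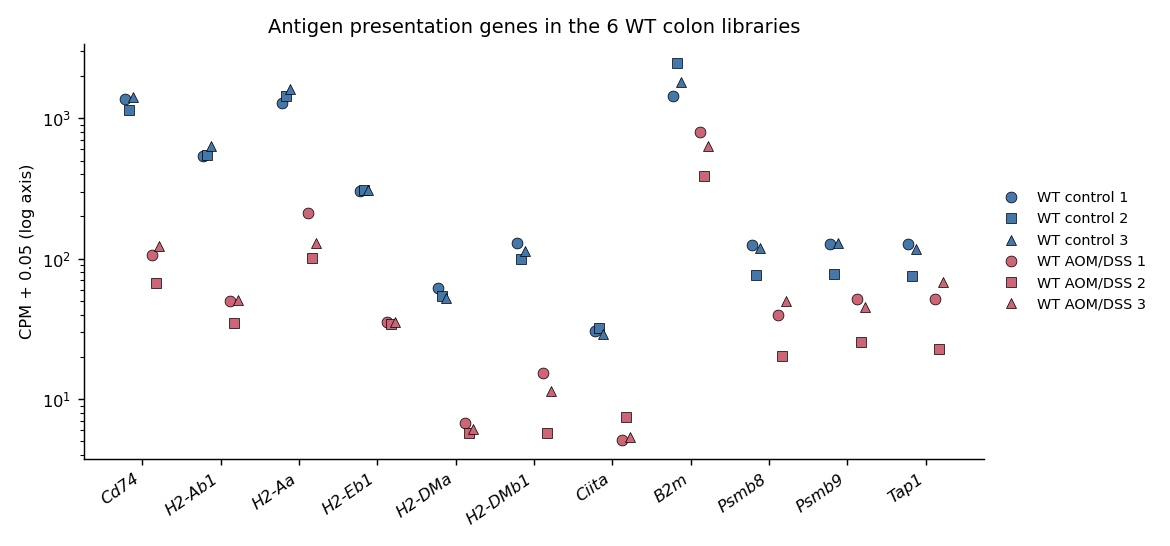
Each point is the CPM of one gene (horizontal axis) in 1 WT library, plotted as CPM + 0.05 on a log axis, with untreated libraries in blue and AOM/DSS libraries in red. In the class II genes the red points lie below all blue points, for H2-Eb1 at 34.3 to 35.5 against 301 to 308 CPM.

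Genes of MHC class I presentation and the immunoproteasome also fell. Of 21 tested, 13 fell and none rose (median log2 fold change -0.82), 7 of 21 fell without control replicate 2 and 6 without AOM/DSS replicate 3. B2m, the light chain shared by class I molecules, was at 1448, 2482 and 1803 CPM in the controls and at 799, 385 and 632 CPM after AOM/DSS (log2 fold change -1.66 ± 0.29, edgeR adjusted p = 0.00693). Psmb9, a catalytic subunit of the immunoproteasome, fell from 127, 78.2 and 130 to 51.6, 25.3 and 45.5 CPM. The groups did not overlap in either gene. Tapbp, which holds class I molecules at the peptide transporter, fell by 0.81 on the log2 scale, and the transporter subunits Tap1 and Tap2 fell by 1.18 and 0.94. The heavy chains H2-K1 and H2-D1 fell by 1.18 and 0.95, with the same uncertainty over copies. Nlrc5, the class I counterpart of Ciita, gave 49, 35.9 and 41.4 CPM against 13.6, 6.48 and 44.9 CPM and was not called (edgeR adjusted p = 0.266). It was low in replicates 1 and 2 after AOM/DSS and at the level of the controls in replicate 3.

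Among interferon response genes, 4 of 38 fell and none rose (median -0.63), where 6.58% of all genes tested fell. DESeq2 called 8 of them lower and limma-voom 24, and neither called any higher. Irf1, a transcription factor induced by interferon-gamma, was at 392, 362 and 357 CPM in the controls and at 181, 177 and 201 CPM after AOM/DSS (log2 fold change -0.99 ± 0.18, edgeR adjusted p = 0.00824), and the call held without either library. Oasl1, Oas1a and Ifih1, which sense or restrict viral RNA, fell by 1.04, 0.84 and 0.71 on the log2 scale with all libraries and missed the threshold without either. The list as a whole was lowest in AOM/DSS replicate 2, where its mean log2 CPM was 3.66, against 4.88 and 4.98 in the other treated libraries and 5.04 to 5.37 in the controls.

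Few markers of the immune cells that present antigen passed the test. In bulk tissue, fewer cells of a type and less RNA per cell cannot be told apart. Among 23 macrophage and monocyte genes Cd163 fell and Arg1 rose. The call of Arg1 was lost without control replicate 2 and without AOM/DSS replicate 3. Cd163, a scavenger receptor of resident macrophages, gave 1.18, 2.03 and 0.768 CPM against 0.145, 0.219 and 0 CPM (log2 fold change -3.36 ± 0.64, edgeR adjusted p = 0.0105), from 75 reads in the 3 controls and 8 in the 3 treated libraries. The pan-macrophage genes Adgre1 and Cd68 had log2 fold changes of -0.70 ± 0.38 and -0.40 ± 0.41, and Itgax, a dendritic cell integrin, of 0.00 ± 0.43, none called. The summed level of the 23 macrophage genes was 399 to 469 CPM in the controls and 354 to 663 CPM after AOM/DSS. H2-Oa and H2-Ob, class II genes of B cells, had log2 fold changes of -0.05 ± 0.87 and -0.07 ± 1.03. Of 22 B and plasma cell genes only Derl3, of the plasma cell secretory pathway, fell (edgeR adjusted p = 0.0398, 0.0992 without control replicate 2), and their summed level was 2054 to 2259 CPM in the controls and 934 to 1443 CPM after AOM/DSS. The part of these cells in the class II result was not tested.

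Of 20 T and NK cell genes, the chemokine gene Ccl5, Cd7 and the cytotoxic granule gene Nkg7 fell, and none rose. All 3 calls rested on control replicate 2: Ccl5 was at 28.2 CPM there, at 2.01 and 3.13 CPM in the other controls and at 1.45, 0.7 and 1.37 CPM after AOM/DSS, and its edgeR adjusted p was 0.303 without that library. The list median came to -0.07 without that library. Among 9 mast cell genes, Hdc, which makes histamine, rose and Slc18a2, which packs it, fell, both without a call once AOM/DSS replicate 3 was left out. Of the butyrophilin-like genes, some of which support intraepithelial γδ T cells, 4 were looked at, Btnl2 by the size of its change and the others after the values were seen. Btnl2 was at 12.7, 50.4 and 11.4 CPM in the controls and at 1.5, 1.31 and 1.28 CPM after AOM/DSS (log2 fold change -4.18 ± 0.52, edgeR adjusted p = 0.00103, 1.7e-04 without control replicate 2 and 0.00922 without AOM/DSS replicate 3). Btnl6 fell from 205, 348 and 178 to 71.1, 73.8 and 39.2 CPM (edgeR adjusted p = 0.00799). Btnl1 was called with all libraries (edgeR adjusted p = 0.0199) but not without control replicate 2 (0.0806), where it stood at 222 CPM, and Btnl4 was not called (0.0543). Members of this family have close copies.

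Brush border genes fell as a group. This list of 22 was drawn up after the values of some members were seen. Of 21 tested, 16 fell and none rose (median log2 fold change -1.16), 10 fell without control replicate 2, 7 without AOM/DSS replicate 3 and 6 without both. Krt20, a keratin of mature surface cells, was at 1800, 3635 and 1863 CPM in the controls and at 586, 594 and 626 CPM after AOM/DSS (log2 fold change -2.01 ± 0.32, edgeR adjusted p = 0.00455). The 3 treated libraries were almost level, and the spread lay in the controls. Slc9a3r1, the scaffold that anchors transporters to ezrin, gave 281, 730 and 267 CPM against 84.4, 102 and 66.2 CPM (log2 fold change -2.34 ± 0.35, edgeR adjusted p = 0.00365). Vil1, the actin bundler villin, gave 933, 1314 and 883 CPM against 442, 493 and 325 CPM (log2 fold change -1.31 ± 0.23, edgeR adjusted p = 0.00693). Cdhr5 and Cdhr2, cadherins that link neighboring microvilli, fell with edgeR adjusted p of 0.00436 and 0.0137, and Myo15b and Plekhg6 fell by 1.64 and 2.19. Epcam, present in all epithelial cells of the colon, moved by -0.32 ± 0.15 on the log2 scale and was not called (edgeR adjusted p = 0.165).

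Of 31 colonocyte transport and absorption genes, 11 fell and 1 rose (median -0.99). Without control replicate 2, 5 fell, without AOM/DSS replicate 3, 3 fell, and none rose in either. Slc26a3, the chloride-bicarbonate exchanger of the surface, was at 1573, 2135 and 1405 CPM in the controls and at 531, 517 and 70.8 CPM after AOM/DSS (log2 fold change -2.19 ± 0.61, edgeR adjusted p = 0.0374, 0.107 without control replicate 2 and 0.0925 without AOM/DSS replicate 3). Car4, a surface carbonic anhydrase, gave 1159, 367 and 825 CPM against 262, 257 and 39.9 CPM, and its call held without control replicate 2 (edgeR adjusted p = 0.0437) but not without AOM/DSS replicate 3 (0.0925). Trpm6, a magnesium channel, gave 237, 205 and 215 CPM against 107, 67.3 and 13.3 CPM (edgeR adjusted p = 0.0337, 0.0735 without control replicate 2). AOM/DSS replicate 3 was lowest in all 3 genes. Slc12a2, the basolateral chloride loader of secreting crypt cells, was the member that rose, from 335, 120 and 359 to 625, 520 and 587 CPM (edgeR adjusted p = 0.0479, 0.136 without control replicate 2 and 0.13 without AOM/DSS replicate 3). The calls of Car1 and Slc51a came from control replicate 2 and turned direction without it, from -4.67 to 0.04 and from -8.71 to 2.33 on the log2 scale. Sgk2, a kinase related to the sodium transport regulator Sgk1 and singled out for its small p, was at 120, 242 and 116 CPM against 36.4, 29 and 28.3 CPM (log2 fold change -2.35 ± 0.26, edgeR adjusted p = 5.6e-04).

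**Figure D3:**
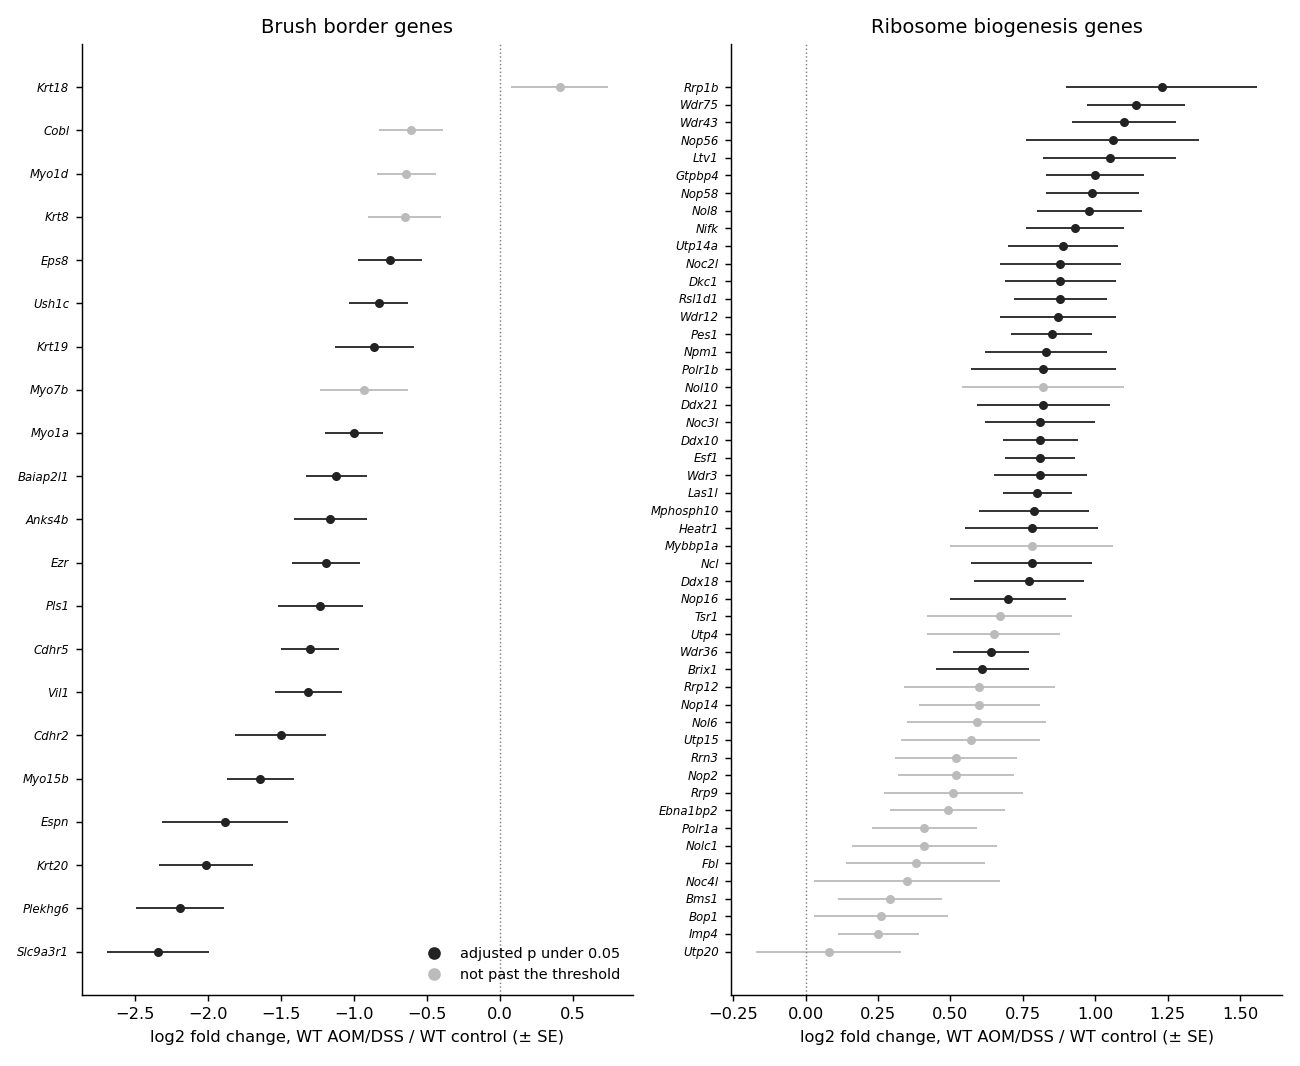
Points give the log2 fold change of each tested brush border gene (left) and ribosome biogenesis gene (right) in WT AOM/DSS against WT control, with bars of 1 SE and black for an adjusted p under 0.05. Of 21 brush border genes 16 were called, all lower, and of 50 ribosome biogenesis genes 30 were called, all higher.

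Genes that hold back growth fell while ribosome biogenesis genes rose. Both lists were drawn up after values were seen. Of 17 growth arrest genes, 7 fell and none rose (median -0.75), and 5 of them were lower without control replicate 2, 4 without AOM/DSS replicate 3 and 5 without both. Tob1, an antiproliferative factor that recruits deadenylases, was at 158, 206 and 175 CPM in the controls and at 66.2, 81.4 and 69 CPM after AOM/DSS (log2 fold change -1.32 ± 0.15, edgeR adjusted p = 5.6e-04). Ccng2, an unconventional cyclin linked to cell cycle arrest, gave 315, 375 and 312 CPM against 127, 145 and 119 CPM (log2 fold change -1.36 ± 0.16, edgeR adjusted p = 9.8e-04). Mxd1, an antagonist of Myc found in differentiated cells, gave 1301, 996 and 1042 CPM against 393, 478 and 426 CPM (edgeR adjusted p = 0.00522). In all 3 the groups were well apart. Cdkn1a, the cell cycle inhibitor p21, fell from 306, 261 and 271 to 106, 130 and 133 CPM (log2 fold change -1.18 ± 0.21, edgeR adjusted p = 0.00824). It was the 1 member of 20 p53 target genes that was called.

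Of 50 ribosome biogenesis genes, 30 rose and none fell (median log2 fold change 0.79), 12 rose without control replicate 2, 10 without AOM/DSS replicate 3 and 4 without both. Wdr75, a subunit of the complex that starts processing of the ribosomal RNA precursor, was at 28.2, 19.6 and 32.1 CPM in the controls and at 60.9, 47.1 and 68.1 CPM after AOM/DSS (log2 fold change 1.14 ± 0.17, edgeR adjusted p = 0.00425). Nop58, a core protein of box C/D ribonucleoproteins, gave 62.7, 61.3 and 77 CPM against 151, 103 and 145 CPM (log2 fold change 0.99 ± 0.16). Nifk, which binds the Ki-67 protein, gave 31.3, 31.4 and 40.9 CPM against 70.2, 55.8 and 70.8 CPM (log2 fold change 0.93 ± 0.17, edgeR adjusted p = 0.00947). The 4 called without both libraries were Wdr75, Pes1, Esf1 and Ddx10. The rise was seen in all 3 treated libraries, including AOM/DSS replicate 1, whose summed level of the 50 genes was 3453 CPM against 1574 to 2331 CPM in the controls. Myc, which drives many of these genes, rose from 10.5, 9.56 and 13.1 to 26.4, 30.6 and 41 CPM (log2 fold change 1.57 ± 0.38, edgeR adjusted p = 0.0249, 0.092 without control replicate 2 and 0.101 without AOM/DSS replicate 3).

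Neither the list of mitosis genes nor that of DNA replication genes held a called member. By edgeR 0 of 30 mitosis and proliferation genes passed, 2 had an unadjusted p under 0.05, and DESeq2 and limma-voom called 0. Mki67 was at 411, 152 and 284 CPM in the controls and at 337, 222 and 262 CPM after AOM/DSS, with the groups overlapping fully (log2 fold change -0.05 ± 0.45). Of 36 DNA replication genes edgeR called 0, with 11 at an unadjusted p under 0.05, while DESeq2 called 3 and limma-voom 0. Their median log2 fold change was 0.62, and all 3 treated libraries lay above the controls in 16 of them, as in 14.9% of all genes tested. Mcm2 was one of the 16, at 23.4, 14.5 and 26.6 CPM against 33.7, 31.9 and 54.8 CPM (edgeR adjusted p = 0.105). Control replicate 2 had the lowest level of both lists, at a mean log2 CPM of 4.13 for mitosis and 3.51 for replication. Apex1, which repairs base damage, rose by 1.24 on the log2 scale (edgeR adjusted p = 0.0596 without control replicate 2 and 0.0824 without AOM/DSS replicate 3) among 14 alkylation damage and mismatch repair genes, and the fall of Aldh1a1 was not called without control replicate 2 (edgeR adjusted p = 0.648). Mcl1, a survival factor of the Bcl2 family, fell among 24 apoptosis regulators, and its call held without control replicate 2 (edgeR adjusted p = 0.0148) but not without AOM/DSS replicate 3 (0.119).

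Wnt target genes rose, to very different levels among the treated libraries. Of 29 tested, 12 rose and none fell (median log2 fold change 2.27). None of the 12 calls held without control replicate 2, where Sox4 came nearest (edgeR adjusted p = 0.0579), or without AOM/DSS replicate 3 (Sox4, 0.0679), with medians of 2.16 and 0.94. Notum, a secreted enzyme that inactivates Wnt proteins, was at 0, 0 and 0.548 CPM in the controls and at 0.145, 24.2 and 98.6 CPM after AOM/DSS (log2 fold change 7.83 ± 2.02, edgeR adjusted p = 0.0307). For Notum, AOM/DSS replicate 1 lay within the controls and the others far above. Nkd1, an intracellular Wnt inhibitor, gave 9.08, 9.62 and 6.85 CPM against 2.42, 46.6 and 247 CPM (edgeR adjusted p = 0.0492). Axin2, the scaffold of the complex that destroys β-catenin, gave 14.9, 4.78 and 14 CPM against 16.5, 56.7 and 154 CPM (edgeR adjusted p = 0.0342). The order of the treated libraries was the same in these genes and in Wif1, Apcdd1, Prox1 and Rnf43. The summed level of the 29 genes was 266 to 340 CPM in the controls and 350, 804 and 2365 CPM in AOM/DSS replicates 1, 2 and 3. Wnt10a rested on 3 reads in the controls and 452 after AOM/DSS, a ratio of 121 with a 95% counting interval of 41.1 to 588.

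Of 13 crypt stem cell genes edgeR called 0, with 5 at an unadjusted p under 0.05, DESeq2 called 0 and limma-voom 2. Lgr5, the receptor that marks crypt stem cells, gave 6.53, 3.54 and 7.9 CPM against 2.71, 20.4 and 74.3 CPM (edgeR adjusted p = 0.11), in the same order as Notum. The letters CTTTGA, the core that TCF/LEF factors bind, stood on either strand in 4 of the 20 Wnt target genes with a promoter window and in 18.2% of all genes with one. They stood in 5 of 12 class II list genes (41.7%) and in 3 of 18 class I list genes (16.7%). Among 21 fetal-like repair genes Krt7 rose and Emp1 and Krt19 fell. Krt7 was at 111, 64 and 123 CPM in the controls and at 143, 225 and 350 CPM after AOM/DSS (edgeR adjusted p = 0.0326, 0.129 without control replicate 2), and Emp1 was at 6472 CPM in control replicate 2 and was not called without it (edgeR adjusted p = 0.285).

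A part of the matrix protease, inflammatory mediator and neutrophil genes rose, and most called members were highest in AOM/DSS replicate 3. Of 11 tested neutrophil genes 6 rose (median 3.26), of 22 matrix metalloproteinases and inhibitors 6 rose (median 1.62), and of 30 TNF and NF-kB inflammation genes 6 rose (median 0.97), with none lower in any of the 3 lists and none of these calls held without control replicate 2. By limma-voom 3 neutrophil genes were higher and 1 lower. The mean log2 CPM of AOM/DSS replicate 1 lay within the range of the controls in all 3 lists, at -0.17, 1.07 and 3.58. The summed level of the 11 neutrophil genes was 526, 2.88 and 473 CPM in the controls and 222, 268 and 630 CPM after AOM/DSS. S100a9, a calprotectin subunit abundant in neutrophils, was at 0.157, 0.0655 and 0.11 CPM in the controls and at 1.07, 8.01 and 135 CPM after AOM/DSS (log2 fold change 8.61 ± 1.68, edgeR adjusted p = 0.0127). It was the only called member of these lists whose call held without AOM/DSS replicate 3 (0.0377), and its adjusted p was 0.0504 without control replicate 2. Mmp7, an epithelial matrix protease, gave 0.315, 0.0655 and 1.37 CPM against 0.92, 27.6 and 372 CPM (edgeR adjusted p = 0.0295). Cxcl5, a neutrophil chemoattractant, gave 6.13, 0.131 and 11.4 CPM against 19.4, 41.2 and 573 CPM (edgeR adjusted p = 0.0265). Il1b gave 2.4, 3.08 and 3.73 CPM against 2.95, 5.34 and 74.7 CPM, so that its call (edgeR adjusted p = 0.0476) rested on 1 library and was lost without it (0.707). Il11, Il23a, Ccl20 and Socs3 also rose, of which Ccl20 was highest in AOM/DSS replicate 2. Retnlg, a neutrophil resistin-like gene, had no read in the controls and 240 after AOM/DSS, at least 72.9-fold higher against a floor of 3 reads over the control group.

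**Figure D4:**
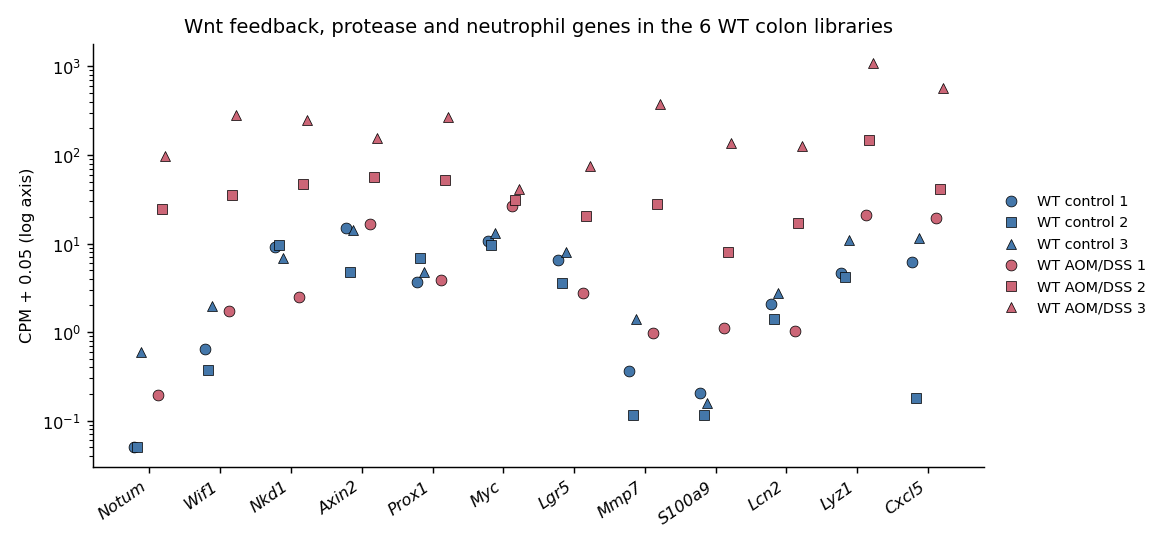
Points give CPM + 0.05 on a log axis for Wnt feedback, protease, neutrophil and defense genes in each WT library, with untreated libraries in blue, AOM/DSS libraries in red, and a symbol for each replicate number. For Notum, Wif1 and Prox1 the AOM/DSS 1 symbol lies among the blue points and AOM/DSS 3 is highest at 98.6, 283 and 269 CPM, whereas Myc lies between 26.4 and 41 CPM in all 3 treated libraries.

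Of 24 antimicrobial and epithelial defense genes, 4 rose and none fell, but the list did not rise as a whole. Its median log2 fold change was -0.22, with 14 members negative, and limma-voom called 3 higher and 5 lower. The summed level was 33962 to 42895 CPM in the controls and 25152 to 29708 CPM after AOM/DSS. Lyz1 and Ang4, products of Paneth cells, which the healthy mouse colon lacks, were above the controls in all 3 treated libraries. Lyz1 was at 4.64, 4.12 and 10.8 CPM in the controls and at 21.1, 148 and 1088 CPM after AOM/DSS (log2 fold change 6.01 ± 1.45, edgeR adjusted p = 0.025). Ang4 gave 0.472, 1.64 and 1.15 CPM against 10.8, 22.1 and 55.5 CPM (log2 fold change 4.80 ± 0.98, edgeR adjusted p = 0.0145) and was called without control replicate 2 (0.0396) but not without AOM/DSS replicate 3 (0.0588). Itln1, a lectin that binds microbial sugars, and Lcn2, which withholds iron from bacteria, rose by 5.49 and 4.55 on the log2 scale, Lcn2 with AOM/DSS replicate 1 at 0.968 CPM, below the controls. Lyz1, Itln1 and Lcn2 were not called without control replicate 2 (edgeR adjusted p from 0.101 to 0.138). Ang4, Itln1 and Lyz1 have close copies in the mouse genome. Among 22 goblet cell mucus genes Slc12a8 and Sytl2 rose and none fell, neither of them called without control replicate 2 (edgeR adjusted p = 0.127 and 0.162), while Muc2, the main mucin, gave 1890, 1384 and 1915 CPM against 2120, 1924 and 875 CPM (edgeR adjusted p = 0.898). Among 23 enteroendocrine genes Sst, Scg3 and Cpe fell, and none of the 3 was called without control replicate 2 or without AOM/DSS replicate 3 (edgeR adjusted p from 0.0919 to 0.126). Of 12 tuft cell genes edgeR called 0, with 3 at an unadjusted p under 0.05, and DESeq2 called 2, of which 1 was higher.

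Genes of the muscle wall and of nerves fell. Of 16 smooth muscle markers 6 fell (median -1.44), and all 3 treated libraries lay below the controls in 13, against 17.3% of all genes tested. Myh11, smooth muscle myosin, was at 1547, 1163 and 982 CPM in the controls and at 337, 653 and 111 CPM after AOM/DSS (log2 fold change -1.74 ± 0.49, edgeR adjusted p = 0.0371). Of 16 enteric neuron and glia markers 8 fell (median -1.80), and here too 13 did not overlap, while 3 fell without control replicate 2 and 1 without AOM/DSS replicate 3. Tubb3, a neuronal tubulin, gave 11.7, 16.2 and 10.1 CPM against 2.66, 4.11 and 1.51 CPM (log2 fold change -2.19 ± 0.36, edgeR adjusted p = 0.00562), and its call held without either library. AOM/DSS replicate 3 was lowest and replicate 2 highest of the treated libraries in both genes. The 6 smooth muscle calls were lost without control replicate 2 and without AOM/DSS replicate 3, where Mylk came nearest (edgeR adjusted p = 0.054 and 0.0522). The amount of muscle wall in each piece of tissue was not given, and its part in these changes was not tested. The summed level of the 16 smooth muscle markers was 5235 to 7702 CPM in the controls and 842 to 4032 CPM after AOM/DSS.

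Among 18 endothelial markers the lymphatic genes Flt4 and Lyve1 fell by 1.76 and 1.46 on the log2 scale. Flt4 was called without control replicate 2 (edgeR adjusted p = 0.0401) and Lyve1 was not (0.0712), and neither was called without AOM/DSS replicate 3 (0.0792 and 0.124). Angpt2, a factor of vessel remodeling, rose (edgeR adjusted p = 0.23 without AOM/DSS replicate 3), as did Prox1, which is also a Wnt target in colon tumors and followed their order. Of 19 collagen genes edgeR called 0, with 4 at an unadjusted p under 0.05, and DESeq2 called 3, all lower. Of 26 fibroblast and matrix genes Rspo2, a Wnt-enhancing ligand, and Acta2 fell. Rspo2 rested on low levels, at 0.59, 0.458 and 0.987 CPM against 0.145, 0.175 and 0 CPM. Rspo2 and Acta2 were not called without control replicate 2 (edgeR adjusted p = 0.0828 and 0.083). Of 11 adipocyte markers 5 fell, with a median of -3.75 that came to -1.09 without control replicate 2, and Ckm was the 1 of 6 skeletal muscle markers that fell (edgeR adjusted p = 0.151 without control replicate 2). Of 10 pancreatic acinar markers 1 was tested, Clps, and it was not called (edgeR adjusted p = 0.0504, unadjusted p under 0.05, called by DESeq2).

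Cldn2, which forms a paracellular pore for sodium and water (chrX:139800828-139811386, GRCm38), did not differ beyond the spread. It was at 131, 44.5 and 127 CPM in the controls and at 205, 126 and 135 CPM after AOM/DSS (log2 fold change 0.63 ± 0.36, edgeR adjusted p = 0.259, 0.661 without control replicate 2). Among 12 claudins tested, Cldn23 and Cldn7 fell and Cldn12 rose, the last not called without control replicate 2 (edgeR adjusted p = 0.201). Cldn7, a basolateral claudin, gave 749, 905 and 727 CPM against 464, 453 and 487 CPM (log2 fold change -0.76 ± 0.18, edgeR adjusted p = 0.024), with an adjusted p of 0.0819 without control replicate 2 and 0.0761 without AOM/DSS replicate 3. Cldn23 gave 63.7, 93.2 and 73.6 CPM against 24.7, 33 and 49.2 CPM, and its call held without AOM/DSS replicate 3 (edgeR adjusted p = 0.0159) but not without control replicate 2 (0.0607). Among 15 EGF family genes Egf rose, from 1.26, 1.31 and 1.48 to 3.49, 3.55 and 2.6 CPM, and Erbb2 fell, from 185, 266 and 139 to 95.3, 126 and 81.2 CPM. Neither was called without control replicate 2 (edgeR adjusted p = 0.114 and 0.11) or without AOM/DSS replicate 3 (0.0789 and 0.11). Of 27 tested genes that the study discusses, Il1b, Myc, Egf and Nifk rose and Vil1, Cdkn1a and Cldn7 fell. These were chosen by the study on samples that include these, so that their direction is not independent evidence. Stat3, Nfkb1, Rela, Bcl2, Birc5, Egfr and Ctnnb1 were not called, with log2 fold changes between -0.18 and 0.25. Pcna came close, at 92.7, 77.8 and 105 CPM against 134, 112 and 191 CPM (edgeR adjusted p = 0.0516).

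The smallest adjusted p of all genes belonged to Lars2 and Gm15564. Lars2, the mitochondrial leucyl-tRNA synthetase (chr9:123366927-123462666, GRCm38), was at 440, 482 and 568 CPM in the controls and at 106, 118 and 81.5 CPM after AOM/DSS (log2 fold change -2.28 ± 0.21, edgeR adjusted p = 8.4e-05). The noncoding loci Gm15564, Gm23935 and Mir6236 fell with it, by 2.69, 2.29 and 2.89 on the log2 scale. All 4 were singled out after the values were seen. In Cldn2KO libraries Lars2 was at 314, 561 and 439 CPM untreated and at 92, 120 and 112 CPM after AOM/DSS. It stood at 118 to 160 CPM in the 6 libraries of both genotypes after recovery from DSS, so that both untreated groups were high and every treated group low. The recovery libraries lacked Hoxb13, as given above. Slco2a1, which clears prostaglandin E2, fell from 168, 257 and 119 to 42.5, 48.6 and 21.5 CPM (log2 fold change -2.27 ± 0.30, edgeR adjusted p = 0.00161). Among 16 prostaglandin and eicosanoid genes it was the 1 that fell, and Ptges, a prostaglandin E synthase, and Alox12 rose, neither of them called without control replicate 2 (edgeR adjusted p = 0.184 and 0.0955) or without AOM/DSS replicate 3 (0.236 and 0.136). Neu1, a lysosomal sialidase, Cd82, a tetraspanin, and Slc25a20, the mitochondrial carnitine carrier, fell by 1.43, 1.11 and 1.28 on the log2 scale.

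Of 20 hypoxia and glycolysis genes 4 fell and none rose (median -0.46), 3 fell without control replicate 2 and 1 without AOM/DSS replicate 3. Aldoa, a glycolytic aldolase, gave 1099, 1012 and 1014 CPM against 673, 616 and 517 CPM (log2 fold change -0.79 ± 0.15, edgeR adjusted p = 0.0116), and Ldha gave 1494, 1674 and 1512 CPM against 965, 953 and 956 CPM (edgeR adjusted p = 0.0295, 0.0885 and 0.101 without the one and the other library). Vegfa and P4ha1 fell by 0.84 and 1.12. Among 21 butyrate oxidation and ketogenesis genes Fabp2, Bdh1 and Cpt2 fell, none of them called without control replicate 2, and Fabp2 turned direction without it (from -4.66 to 0.08). Of 19 clock genes, a list drawn up after values were seen, 5 fell and none rose, 2 fell without control replicate 2 and 1, Per1, without AOM/DSS replicate 3. Per1 fell from 36.5, 53.6 and 32.5 to 13, 17.8 and 20.1 CPM (log2 fold change -1.27 ± 0.21, edgeR adjusted p = 0.00605). The time of day of tissue collection was not given. Regional patterning genes followed control replicate 2: of 13 proximal colon genes Hoxb6 and Hoxb7 fell, at 85.1 and 26.1 CPM in that library, and of 10 distal colon patterning genes Hoxd9 rose (edgeR adjusted p = 0.0908 without control replicate 2). Krt15 was the 1 of 17 squamous epithelium markers that rose, to 0.775, 9.37 and 7.09 CPM after AOM/DSS from 0.524 to 1.15 CPM in the controls (edgeR adjusted p = 0.135 without control replicate 2).

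**Figure D5:**
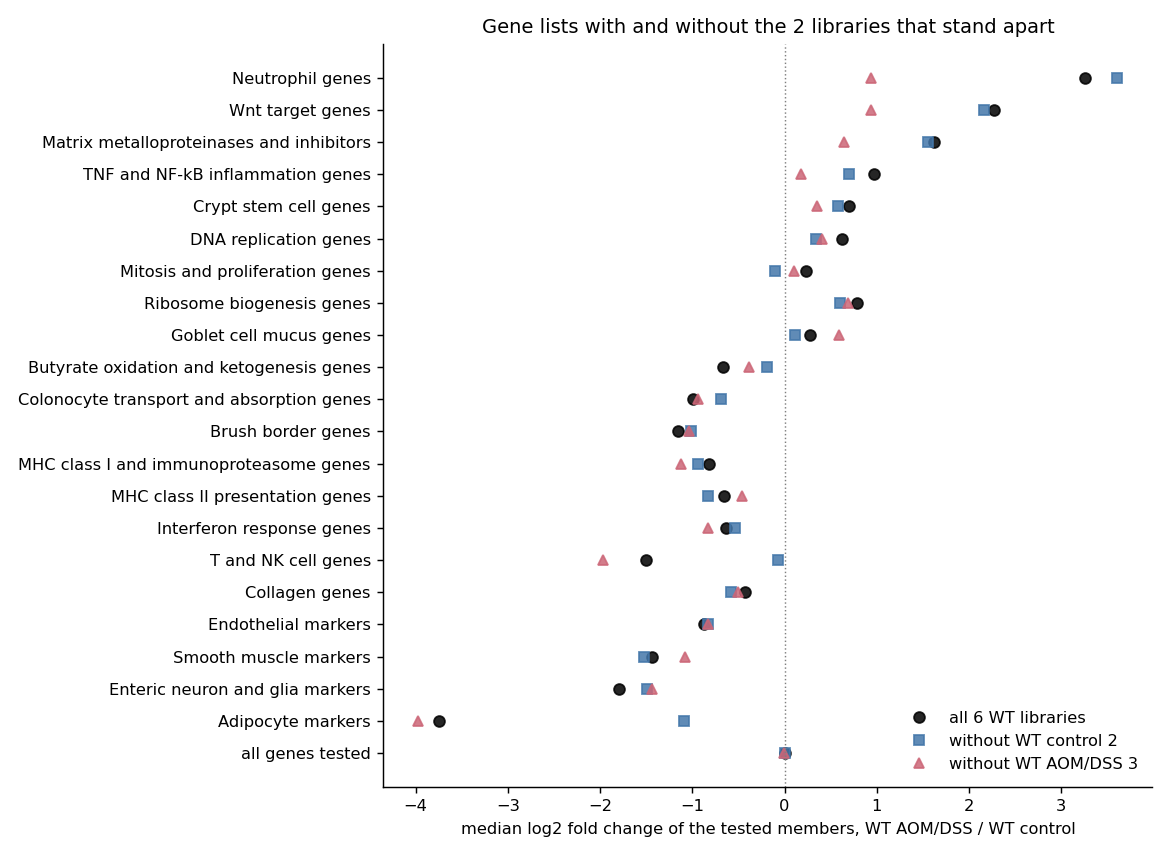
Each row gives the median log2 fold change of the tested members of a list (horizontal axis) with all 6 WT libraries (black), without control 2 (blue) and without AOM/DSS 3 (red). The medians of the neutrophil and Wnt lists drop without AOM/DSS 3, to 0.94 in both, those of the T cell and adipocyte lists move toward 0 without control 2, and that of the brush border list stays between -1.16 and -1.01.

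Among genes called with and without control replicate 2, without overlap of the groups and with a mean of at least 1 CPM in a group, 53 were higher and 229 lower. The higher genes with the largest changes were Ang4, Khdc1a, Tenm4, Nfe2l3, Ccn3, Xkr4, B3galt2, Tmeff1, Pcdhb16, Itga2, Homer2 and Sorcs2, with log2 fold changes from 4.80 down to 1.68. Nfe2l3, a transcription factor of the cap'n'collar family, was at 3.66, 0.917 and 4.72 CPM in the controls and at 8.42, 23.7 and 56.9 CPM after AOM/DSS (edgeR adjusted p = 0.0135, 0.0609 without AOM/DSS replicate 3). Ccn3, a matricellular protein, gave 11, 4.19 and 22.4 CPM against 80.5, 115 and 39.2 CPM (log2 fold change 2.63 ± 0.48, edgeR adjusted p = 0.00947), with AOM/DSS replicate 3 the lowest of the treated libraries. Its call held without either library and without both. Itga2, a collagen-binding integrin subunit, gave 4.25, 12.5 and 5.43 CPM against 13.3, 25.4 and 34.9 CPM, with an adjusted p of 0.05 after rounding without control replicate 2. Tenm4, Xkr4, B3galt2, Homer2 and Sorcs2 overlap a gene on the other strand, and since the counting was not stated to use strand, their values are uncertain. The lower genes were H2-T3, Hkdc1, Hoxb5, Btnl2, Apol10a, Fam155a, Cd74, H2-Ab1, H2-DMb1, Fam163a, Cd163 and Kbtbd11. For H2-T3, Hkdc1 and Hoxb5 the size came from control replicate 2, since their log2 fold changes went from -8.77, -6.07 and -4.22 to -3.09, -1.70 and -2.03 without it. Apol10a, of the apolipoprotein L family, gave 77.3, 369 and 77.6 CPM against 17.2, 7.66 and 6.67 CPM (log2 fold change -4.05 ± 0.61, edgeR adjusted p = 0.00425). Kbtbd11 fell from 35.6, 248 and 38.3 to 15.3, 10.2 and 6.29 CPM (edgeR adjusted p = 0.0537 without AOM/DSS replicate 3).

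Between AOM/DSS and untreated Cldn2KO libraries edgeR called fewer genes than in WT, and limma-voom called more (3061 against 2549 in WT). By edgeR, of 16937 genes 13 rose and 20 fell (0.0768% and 0.118%), and 2573 had an unadjusted p under 0.05. Of the 33 called in Cldn2KO, 21 (63.6%) were also called in WT, 20 of them in the same direction, and these were 1.19% of the WT calls. Tob1, Lars2, Slco2a1, Per1, Neu1, Cd163 and Khdc1a were among them. Tob1 was at 160, 203 and 167 CPM in untreated and at 76, 79.6 and 81.9 CPM in AOM/DSS Cldn2KO libraries, and Cd163 at 1.77, 1.61 and 2.96 against 0.238, 0.26 and 0.176 CPM. The difference between the genotypes' responses passed the threshold in 2 genes, Ddah1 and the antibody segment Ighv5-16, with 1429 at an unadjusted p under 0.05.

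Cd74 and H2-Ab1 stood lower in the 3 untreated Cldn2KO than in the 3 untreated WT libraries, a difference that was not tested here. H2-Ab1 was at 19.7, 10.3 and 69.3 CPM in untreated Cldn2KO libraries. Cd74 was at 31.3, 10.8 and 117 CPM in untreated and at 60.3, 42.1 and 40.7 CPM in AOM/DSS Cldn2KO libraries (-0.15 ± 0.64 on the log2 scale). For Cd74 the untreated Cldn2KO libraries thus lay at or below the level of the WT AOM/DSS libraries. The WT response minus the Cldn2KO response was -3.57 ± 0.93 for Cd74 (edgeR adjusted p = 0.348) and -2.98 ± 0.72 for H2-Eb1 (0.338), neither past the threshold. After recovery from DSS, Cd74 was at 248 to 369 CPM in WT and at 5.46, 4.13 and 18.5 CPM in Cldn2KO libraries, so that untreated WT colon was the highest of the 6 groups. The recovery libraries differ in the markers of colon region, and its part in these levels was not tested. Krt20 was at 866, 1126 and 1143 CPM in untreated and at 1029, 738 and 657 CPM in AOM/DSS Cldn2KO libraries (log2 fold change -0.37 ± 0.31), and the difference between the responses had an adjusted p of 0.355. Notum was at 0.0986, 0.0555 and 0.0538 CPM in untreated and at 38.9, 0.26 and 42.2 CPM in AOM/DSS Cldn2KO libraries. There too 1 of the 3 treated libraries stayed near the level of the controls.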

How the data were processed

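Mouse colon RNA-Seq counts per gene were used as deposited by the authors, in 1 table of 36 lane columns for 18 libraries (per-sample columns not used: 0). Per the labels, reads were aligned with HISAT2 to GRCm38 and counted with featureCounts of Subread, whereas the methods of the study name TopHat2; versions and the strand setting were not given in the sources used here. Gene names came from GENCODE M21 (47310 of 47729 genes matched).

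The 2 lanes of each library were summed. Genes passing filterByExpr (16937, with 30792 dropped) were scaled by TMM and fitted with edgeR 4.0.16 in R 4.3.3 (glmQLFit with robust estimation, all 18 libraries, 1 mean per group of 3, biological coefficient of variation 0.315). Intervals and floors cover counting error only. The fit was tested on simulated data. DESeq2 1.42.0 and limma 3.58.1 (voom with sample weights) were alternatives.

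The comparison, the 40 gene lists, the 4 lists added later and the tests were chosen with earlier results of these data known. Named genes were up to 12 per direction with the largest change among genes called with and without WT control replicate 2, without overlap of the groups and with a mean of at least 1 CPM in a group (predicted genes, pseudogenes and antigen receptor segments were counted only), up to 4 called members per list, and the genes the study discusses. Reads of a gene and of an overlapping gene on the other strand cannot be told apart, which touches 718 of the 1761 called genes. Promoter windows (250 bases before to 50 after a start) were from RefSeq. Some list members are not reported here.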

Additional observations from a re-analysis of the deposited data

Results flagged for a closer look

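The response to AOM/DSS differed between the genotypes by the test of the difference itself in 2 genes. By edgeR no gene passed when the 12 control and AOM/DSS libraries were fitted alone or when certain single libraries were left out, WT control replicate 1 among them, while DESeq2 called 87 genes and limma-voom 288 with all libraries. For Ddah1, an enzyme that breaks down inhibitors of nitric oxide synthase, the WT response minus the Cldn2KO response was -2.24 on the log2 scale (edgeR adjusted p = 0.0198). WT libraries gave 71.2, 52.7 and 72.5 CPM untreated and 50.7, 61.2 and 58.9 CPM after AOM/DSS, whereas Cldn2KO libraries gave 15.9, 10.2 and 14.9 CPM untreated and 63.4, 44.2 and 60.1 CPM after AOM/DSS. All 6 AOM/DSS libraries and the 3 untreated WT libraries thus lay in 1 range, with the untreated Cldn2KO libraries below it.

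For the antibody heavy chain segment Ighv5-16 the difference was -10.48 (edgeR adjusted p = 0.0198), a fitted value that depends on the prior count. WT libraries gave 1.26, 1.44 and 1.43 CPM untreated (80 reads in all) and no read after AOM/DSS, at least 29.2-fold lower against a floor of 3 reads over the group. Cldn2KO libraries gave 0.0493, 0 and 0.0538 CPM untreated and 0.19, 0.162 and 0.387 CPM after AOM/DSS.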

How the results depend on the processing

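No paired analysis was possible because the titles of the AOM/DSS libraries carry serial numbers that match no replicate number of the controls. Against 1761 genes called in WT, RLE and upper-quartile scaling, a minimum of 1 CPM in 3 libraries and limma-voom (2549) gave counts within 1.5 times of it. No filter on low counts gave 943, DESeq2 3033, the 6 WT libraries alone 7, a covariate for libraries without posterior Hox expression 320, a test against a fold of 1.5 (glmTreat) 37, and adjusted p thresholds of 0.01 and 0.1 gave 113 and 3453. Leaving out 1 library gave 170 (AOM/DSS replicate 3) to 1696, with 345 without control replicate 2, and leaving out both of these, an alternative chosen after seeing the data, gave 148. For the 137 list genes called, the same settings gave 65, 221, 5, 36, 6, 13 and 233, leaving out 1 library 26 to 130, and leaving out both 30.

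The 33 calls in Cldn2KO came to 601 with DESeq2, 3061 with limma-voom and 4 with the 12 control and AOM/DSS libraries alone, and to 4 to 211 without 1 library (211 without AOM/DSS replicate 2). The 2 genotype differences came to 4 with no filter, 87 with DESeq2, 288 with limma-voom, 0 with the 12 libraries alone, 5 with the Hox covariate, 0 to 11 without 1 library and 21 without both. The cause of these shifts was not tested.

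Of 149 named genes called, 149 kept direction and call with DESeq2, 107 with limma-voom, 61 without control replicate 2 and 42 without AOM/DSS replicate 3. Directions turned in 5 genes. With limma-voom, the Hox covariate and both libraries left out, Slc51a came to 1.36, 2.34 and 2.55, Car1 to 0.11, 0.06 and 0.56, and Fabp2 to 0.07, 0.10 and 0.54 on the log2 scale. Without 1 library they ranged from -9.30 to 2.33, from -5.33 to 0.04 and from -5.23 to 0.08, turning without control replicate 2. Without both libraries Aldh1a1 came to 0.01 and Cdx2 to 0.07, against lows of -4.55 and -3.18 with 1 library left out.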
